A study of Danio rerio with 6 samples.

Results

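The slc25 genes encode the mitochondrial carriers, a family of membrane proteins that move metabolites across the inner mitochondrial membrane. They were taken as every gene ID whose name in the files begins with slc25a and a digit, in either case, which gave 56 of the 31953 gene IDs. Of the 56, 49 had reads in at least 1 of the comparisons and 7 had none.

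Mitochondrial carriers share a fold of membrane helices and mostly exchange a substrate of the matrix for a substrate of the cytosol. Through them pass ADP, ATP and phosphate for oxidative phosphorylation, coenzymes and vitamins, di- and tricarboxylic acids, amino acids, acylcarnitines and iron. In liver they connect the mitochondrial with the cytosolic steps of fatty acid synthesis, fatty acid oxidation, nitrogen disposal and haem synthesis.

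RNA was sequenced from livers of adult male zebrafish (Danio rerio) held for 3 weeks in flowing water. The control tank received the solvent ethanol alone, another tank 17β-estradiol at 1000 nM (E2, an estrogen that vertebrates make), and the last tank nonylphenol at 100 nM (NP, an alkylphenol left when certain surfactants break down, and a weak ligand of estrogen receptors). All chemicals were given in ethanol, so that solvent was common to the 3 groups, and no strain or genotype is given. Each group was 1 tank of 80 L with 40 fish, so a tank's effect and a treatment's cannot be told apart. Each group is represented by 2 libraries, and whether a library came from 1 fish or from a pool is not stated. The p-values therefore reflect only how far these libraries differ, and such differences may be technical.

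The deposited values are the authors' own comparisons of each exposure with the control, so both comparisons share the control libraries. From the deposited means, whole reads of 18420 of 18593 genes (99.1%) could be recovered for each of the 6 libraries. A library could not be tied to a sample label, so within a group the library with the larger size factor is called deeper and the other shallower, and values are given in that order. The recovered reads summed to 551164 and 350993 in the controls, 258316 and 21645 under E2, and 381580 and 387872 under NP. The shallower E2 library stood apart, since 1 of its reads counted as 5.35 normalised reads and 1 read of any other library as 0.374 to 0.904. Expected reads in a library, given below, rest on the size factors. These were 5.92 to 1 for the E2 libraries, a smaller gap than that between their recovered reads. Genes with the highest means were not recovered, among them slc25a5 and 10 of the 13 hepatocyte markers looked for, of which transferrin tfa had a deposited mean of 12684 in the E2 comparison. Exocrine pancreas markers (16 of 16 found, 13 recovered, of which 1, CTRL (2 of 3), was at 0) summed to 2.24 and 56.5 normalised reads in the controls, 51.5 and 834 under E2, and 3785 and 10984 under NP. Macrophage markers (10 of 10 found, none at 0 throughout) summed to 502 and 411 in the controls, 116 and 69.5 under E2, and 64.9 and 95.6 under NP. In bulk liver RNA, fewer cells of a type and less RNA per cell cannot be told apart.

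After E2, 2 of the 18 slc25 genes with an adjusted p fell and none rose: slc25a48 and slc25a32a. An adjusted p under 0.05 in the authors' deposited table is the threshold used throughout, and with it 5.77% of the 3241 genes tested were called, 3.67% as lower and 2.1% as higher. A count of 2 among 18 is too small to be read against those shares. After NP, 0 of 22 slc25 genes passed that threshold in the authors' DESeq2 table, where 2.94% of 6799 genes were called (1.26% as higher, 1.68% as lower). Among the 49 members with reads, 2 had an unadjusted DESeq2 p under 0.05, against 726 of the 18067 genes with reads. Of these 2, slc25a15b had no adjusted p. In limma-voom on the recovered reads no member was called in either comparison, nor was any other of the 7145 genes tested, while 1118 genes after E2 and 615 after NP had an unadjusted p under 0.05.

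slc25a48, which has been linked in mammals to choline entry into mitochondria, was at 0 reads in both E2 libraries. Its recovered reads were 62 and 119 in the deeper and the shallower control, 0 and 0 under E2, and 98 and 114 under NP. On the scale normalised for depth that is 23.2 and 70.0 in the controls and 65.0 and 77.8 under NP, so the NP libraries overlapped the controls and both E2 libraries lay below them. At the mean level of the controls, 51.6 reads would have been met in the deeper E2 library and 8.72 in the shallower. Set against 3 reads for the E2 group, the upper limit that a count of 0 allows, the pooled controls were 17.8-fold higher. That figure takes the control level as exact, although the 2 controls differed 3.02-fold, so it is not a lower bound. In the authors' deposited table its log2 fold change was -5.98 ± 1.70 (SE, adjusted p = 0.0153) after E2 and 0.58 ± 0.75 (adjusted p = 0.999) after NP. In limma-voom the E2 difference was -5.22 on the log2 scale with an adjusted p of 0.213. Each way of leaving out 1 library gave values between -6.44 and -3.79. As slc25a48 had no read under E2, none of these limma-voom values measures the size of its fall.

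slc25a32a, whose human counterpart carries folate and flavin adenine dinucleotide, also fell after E2, but its controls stood far apart. Its recovered reads were 11 in the deeper control and 370 in the shallower, 3 and 0 under E2, and 75 and 122 under NP. Normalised for depth, the controls differed 52.9-fold, and the deeper control lay close to the deeper E2 library. In the authors' deposited table its log2 fold change was -4.78 ± 1.55 (SE, adjusted p = 0.0409) after E2 and -0.62 ± 0.99 (adjusted p = 0.999) after NP. In limma-voom the E2 difference was -3.09 on the log2 scale with an adjusted p of 0.509. Without the shallower control that difference was -0.39, so the size of the fall rested on that library.

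Intestinal epithelium markers, 8 of 8 found and none at 0 throughout, set the shallower control apart. Their sum was 261 and 988 normalised reads in the controls, 11.7 and 69.5 under E2, and 1282 and 1238 under NP. However, 1 gene, apoa4b.1, carried most of it in every library. apoa4b.1 had 696 and 1101 reads in the controls, 9 and 10 under E2, and 1929 and 1808 under NP. The other 7 markers together had 1 and 578 reads in the controls, 4 and 3 under E2, and 5 and 6 under NP, so they were high in the shallower control alone. That is also the control in which slc25a32a was high, as were slc25a39 and slc25a36a, at 218, 111 and 152 normalised reads. Under NP, slc25a32a had 49.7 and 83.3 normalised reads, slc25a39 139 and 362, and slc25a36a 135 and 69.6. The part of intestinal RNA in the values of these genes and of slc25a48 was not tested.

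SLC25A34, a carrier whose substrate is not settled, and slc25a14, a relative of the uncoupling proteins, lay just outside the threshold after E2. SLC25A34 had 87 and 91 reads in the controls, 0 and 1 under E2, and 82 and 62 under NP. All E2 values were below all others, and at the control mean 47.6 and 8.05 reads would have been met in the E2 libraries. Taking the reads of each group together, SLC25A34 was 52.7-fold lower under E2 (95% interval 9.33 to 2091, counting error only). With both libraries of a group weighted equally, the means were 43.0 and 2.67 normalised reads, a 16.1-fold difference. Its log2 fold change in the authors' deposited table was -4.07 ± 1.43 (SE, adjusted p = 0.0646) after E2 and 0.16 ± 0.72 (adjusted p = 0.999) after NP. In limma-voom the E2 difference was -5.31 on the log2 scale with an adjusted p of 0.184, and between -6.47 and -2.25 with 1 library left out, nearest 0 without the deeper E2 library.

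slc25a14 had 5 and 5 reads in the controls, 168 and 0 under E2, and 1 and 4 under NP. The E2 libraries were thus the highest and the lowest of the 6, and 28.4 reads would have been met in the shallower E2 library at the level of the deeper. The authors' deposited table gave slc25a14 a log2 fold change of 4.24 ± 1.45 (SE, adjusted p = 0.0563) after E2.

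**Figure D1:**
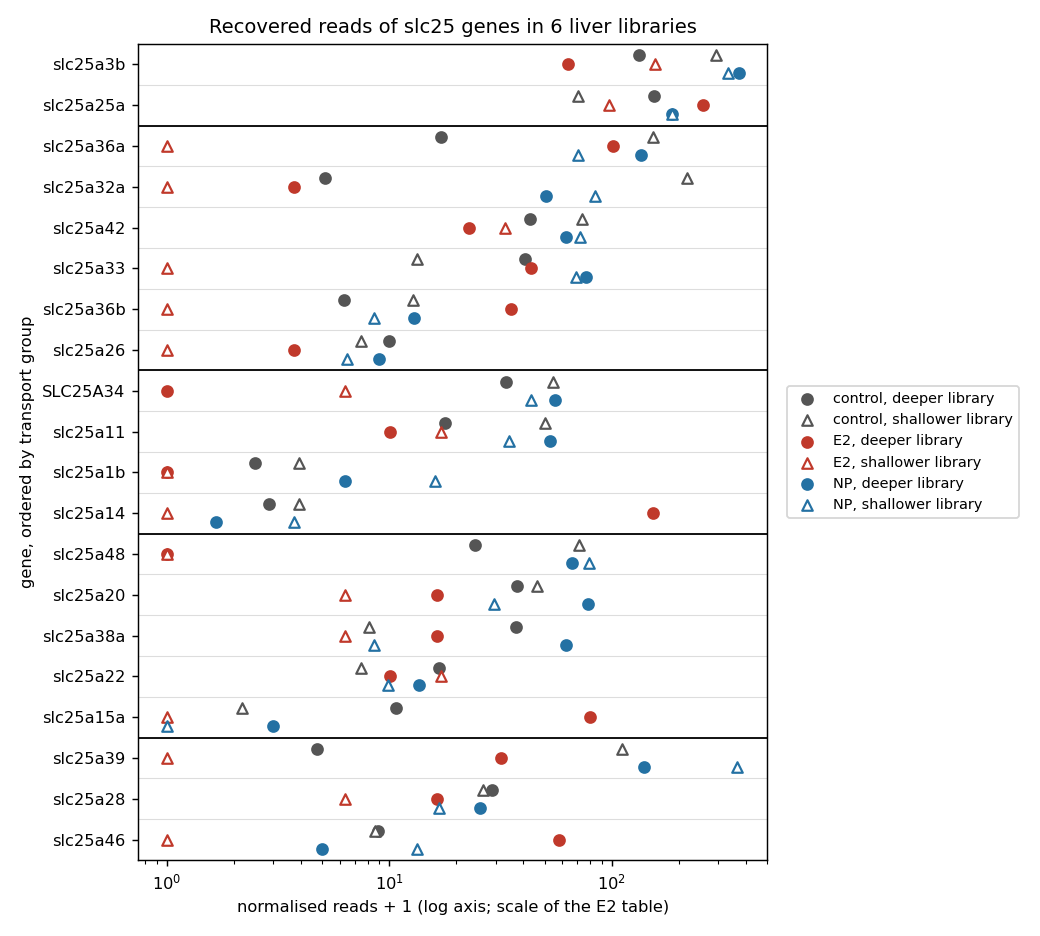
Normalised reads plus 1 (log axis, scale of the E2 comparison) of the named slc25 genes with recovered reads, in rows ordered by transport group, black lines parting the groups. Filled circles are the deeper and open triangles the shallower library of the controls, E2 and NP; both E2 symbols of slc25a48 lie at 0 reads, and the controls of slc25a32a stand 52.9-fold apart.

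The adenine nucleotide and phosphate carriers numbered 12, and 3 of them had an adjusted p in each comparison. None was called. slc25a5, an ADP/ATP exchanger, had the highest deposited mean of the family, 1489 in the E2 and 4480 in the NP comparison, with log2 fold changes in the authors' deposited table of -0.67 ± 1.015 (SE) after E2 and 0.79 ± 0.66 after NP. slc25a3b, the phosphate carrier, had 352 and 499 reads in the controls, 69 and 29 under E2, and 560 and 487 under NP. Per depth, 1 E2 library of slc25a3b lay below both controls and the other between them, and both NP libraries lay above them. Its log2 fold changes in the authors' deposited table were -0.91 ± 1.07 (SE, adjusted p = 0.721) after E2 and 0.69 ± 0.67 (adjusted p = 0.999) after NP.

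slc25a25a, a calcium-regulated carrier of ATP-magnesium against phosphate, had 410 and 118 reads in the controls, 282 and 18 under E2, and 280 and 273 under NP. Its E2 libraries overlapped the controls, whereas both NP libraries, at 186 normalised reads each, were above them. The authors' deposited table gave it 0.62 ± 1.07 (SE, log2) after E2 and 0.69 ± 0.69 after NP. The ADP/ATP exchanger genes slc25a4 and slc25a6 had 0 reads and 1 read in the 6 libraries together.

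Of the 10 carriers of coenzymes, vitamins and nucleotide precursors, 5 had an adjusted p after E2, of which 1 (slc25a32a) fell, and 7 after NP, of which none was called. slc25a42, a carrier of coenzyme A in human cells, had 112 and 123 reads in the controls, 24 and 6 under E2, and 92 and 104 under NP. Both E2 libraries were below both controls per depth, but the authors' deposited table gave a log2 fold change of -1.03 ± 1.08 (SE, adjusted p = 0.682). slc25a36a, slc25a36b and slc25a33 belong to the carriers of pyrimidine nucleotides. slc25a33 had 106 and 21 reads in the controls, 47 and 0 under E2, and 114 and 100 under NP. Its NP libraries lay above both controls, with 1.34 ± 0.77 (SE, log2, adjusted p = 0.686) in the authors' deposited table.

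slc25a36a had 43 and 258 reads in the controls, 111 and 0 under E2, and 203 and 102 under NP, and slc25a36b had 14 and 20, 38 and 0, and 18 and 11. In neither gene did an exposed group separate from the controls. Their log2 fold changes after E2 in the authors' deposited table were -0.59 ± 1.46 and 0.99 ± 1.40 (SE). slc25a26, which brings S-adenosylmethionine into mitochondria, had 24 and 11 reads in the controls, 3 and 0 under E2, and 12 and 8 under NP. The E2 libraries lay below the controls, but at the control mean only 8.55 and 1.44 reads would have been met in them. The authors' deposited table gave slc25a26 -1.66 ± 1.56 (SE, log2) after E2 with no adjusted p.

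The di- and tricarboxylate and uncoupling-type carriers numbered 9, with 3 adjusted p-values after E2 and 4 after NP, none past the threshold. Besides SLC25A34 and slc25a14, they hold slc25a11, which exchanges 2-oxoglutarate for malate in the malate-aspartate shuttle. slc25a11 had 45 and 83 reads in the controls, 10 and 3 under E2, and 78 and 49 under NP. Its E2 libraries lay below the controls and its NP libraries overlapped them, with -1.32 ± 1.19 (SE, log2, adjusted p = 0.618) after E2 in the authors' deposited table. slc25a1b, the citrate carrier that exports acetyl units for fatty acid synthesis, had 4 and 5 reads in the controls, 0 and 0 under E2, and 8 and 22 under NP. Its NP libraries were above the controls, at 1.84 ± 1.08 (SE, log2, adjusted p = 0.709) in the authors' deposited table.

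The amino acid and acylcarnitine carriers were the most numerous, at 19, but only 4 had an adjusted p in each comparison. Of these slc25a48 was called after E2, and none after NP. slc25a20, which carries acylcarnitines inward for fatty acid oxidation, had 98 and 77 reads in the controls, 17 and 1 under E2, and 117 and 42 under NP. Both E2 libraries lay below both controls, at -1.68 ± 1.17 (SE, log2, adjusted p = 0.473) in the authors' deposited table. slc25a38a, a glycine carrier needed for haem synthesis, had 96 and 12 reads in the controls, 17 and 1 under E2, and 92 and 11 under NP. Its controls differed from each other, as did its NP libraries, and those groups overlapped. The authors' deposited table gave -0.84 ± 1.30 after E2 and 0.57 ± 0.95 after NP (SE, log2). The gene that the files name slc25a22, now called slc25a55a, had 42 and 11 reads in the controls, 10 and 3 under E2, and 19 and 13 under NP, with every group overlapping. The rows SLC25A22 (1 of 2) and SLC25A22 (2 of 2), now slc25a22a and slc25a22b, had 11 reads and 0 reads over all libraries.

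The ornithine carriers of the urea cycle, slc25a15a and slc25a15b, differed between the libraries of a group. slc25a15a had 26 and 2 reads in the controls, 87 and 0 under E2, and 3 and 0 under NP. Its log2 fold change after E2 in the authors' deposited table was 2.43 ± 1.49 (SE, adjusted p = 0.391), and the deeper E2 library alone was high. slc25a15b, picked out after its values were seen, had 23 and 1 reads in the controls, 1 and 0 under E2, and none under NP. The authors' deposited table gave it -3.13 ± 1.41 (SE, log2) after NP, with an unadjusted p of 0.0268 and no adjusted p. No read of slc25a13, the aspartate-glutamate carrier of mammalian liver, was found in any library.

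Among the 6 carriers of iron, glutathione and other substrates, none of 3 was called after E2 and none of 4 after NP. slc25a39, which carries glutathione into mitochondria in mammalian cells, had 10 and 188 reads in the controls, 34 and 0 under E2, and 209 and 531 under NP. Its controls stood 29.6-fold apart, and both NP libraries were above both. The authors' deposited table gave 1.88 ± 0.95 (SE, log2) after NP, with an unadjusted p of 0.0468 and an adjusted p of 0.536, and -1.496 ± 1.496 (adjusted p = 0.664) after E2. Red blood cell markers (7 of 10 found, none at 0 throughout) were also higher under NP, at 241 and 567 normalised reads against 75.9 and 64.7 in the controls. Together with the pancreas markers given above, their part in the value of slc25a39 was not tested.

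The mitochondrial iron importers were represented mostly by slc25a28, mitoferrin 2, with 75 and 43 reads in the controls, 17 and 1 under E2, and 37 and 23 under NP. Both exposed groups lay below the controls per depth, with -1.12 ± 1.19 after E2 and -0.38 ± 0.78 after NP (SE, log2) in the authors' deposited table. slc25a37, mitoferrin 1, which zebrafish red cell precursors need for haem, had 1 read in all, in a control. slc25a46, a protein of the outer membrane involved in mitochondrial shape, had 21 and 13 reads in the controls, 63 and 0 under E2, and 6 and 18 under NP. As for slc25a14 and slc25a15a, the deeper E2 library was the highest of the 6 and the shallower had no read, where 10.6 would have been met at the deeper library's level.

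**Figure D2:**
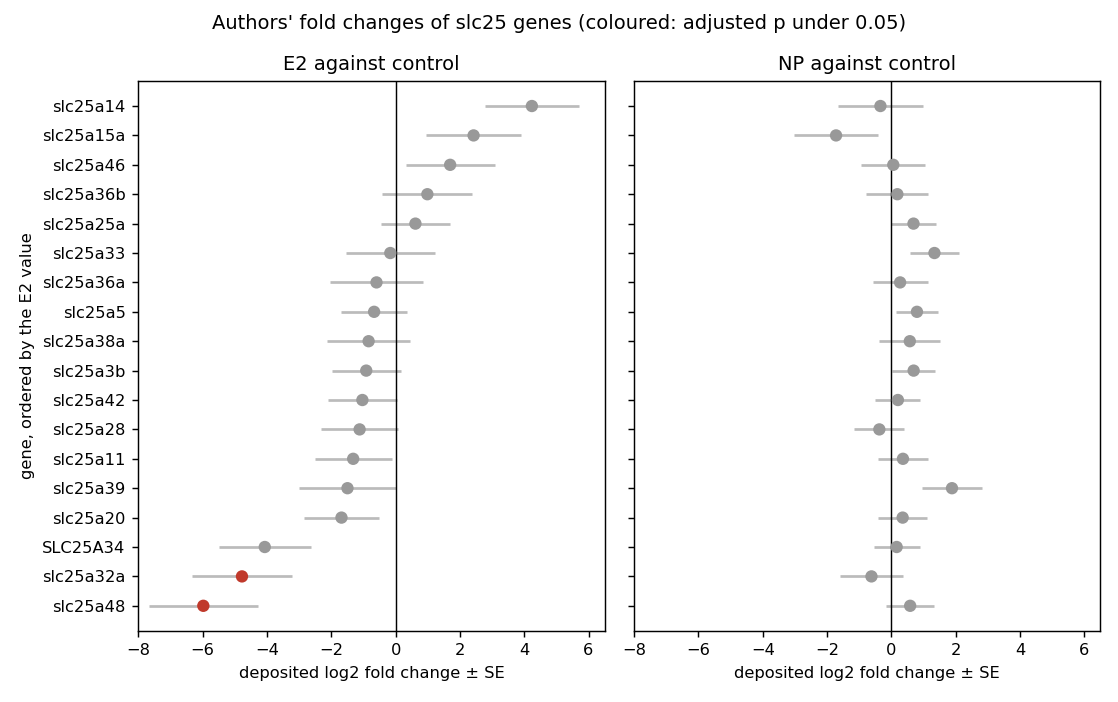
Log2 fold change with its standard error from the authors' deposited table, for the 18 slc25 genes with an adjusted p after E2, in the same order for E2 (left) and NP (right). Coloured points have an adjusted p under 0.05: slc25a48 at -5.98 and slc25a32a at -4.78 after E2, and none after NP.

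Over the family, the median fold change lay below 0 after E2 and above 0 after NP. The median log2 fold change of the 46 members with reads was -0.57 after E2 in the authors' deposited table, against -0.52 for all genes with reads. After NP it was 0.19 over 49 members, against -0.08. Computed from the recovered reads of all libraries, the NP median was 0.23. It was 0.011 without the shallower control and -0.051 without the deeper NP library, so its direction was not stable to leaving out 1 library. Among members with a mean of at least 10, 13 of 19 lay below 0 after E2 with a median of -0.84, against 56.1% below 0 and a median of -0.24 for all such genes. After NP, 16 of 20 lay above 0 with a median of 0.31, against 49.4% above 0 and a median of -0.01. A mean over both groups can reach 10 through 1 group alone. That of slc25a1b after NP did so, with 9 reads in the controls and 30 under NP.

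Where the reads of a member summed to at least 20 over the libraries compared, the groups could be set side by side. After E2, 9 of 25 members had both E2 libraries below both controls and none had both above, where 36.9% of all such genes lay below and 8.07% above. After NP, 3 of 31 members lay below and 7 above, where 24.0% and 20.8% of all genes did. The members above were slc25a3b, slc25a39, slc25a25a, slc25a33, slc25a1b, slc25a10 and slc25a16, and slc25a28 and slc25a15b were among those below. The limit of 20 reads takes both groups together, so a gene can reach it through 1 group alone. slc25a1b had 9 reads in the controls and 30 under NP, and slc25a10 had 6 and 22. slc25a15b had 24 in the controls and none under NP. For any single gene, an exact two-sided permutation test of 2 libraries against 2 cannot give a p under 0.333.

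**Figure D3:**
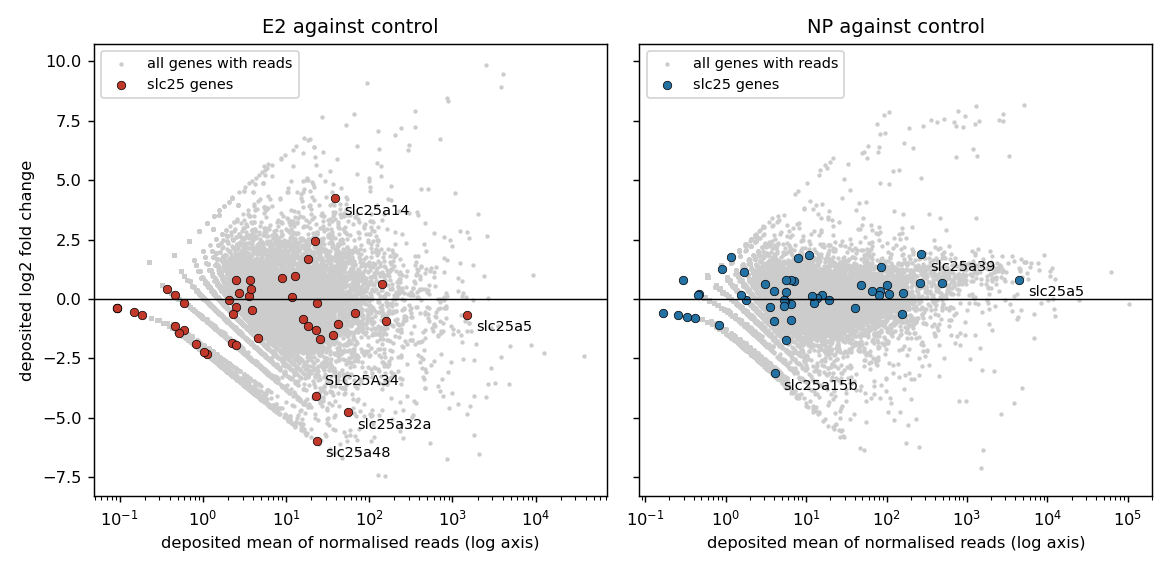
Log2 fold change against the mean of normalised reads (log axis), both from the authors' deposited table, for all genes with reads (grey) and slc25 genes (coloured), after E2 (left) and NP (right). The slc25 genes lie within the spread of all genes at like means, slc25a48 being the lowest of them after E2 at -5.98.

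Carrier genes varied widely between libraries of 1 group. For members with at least 20 reads in a group, the controls differed by a median of 2.43-fold over 21 members (largest 52.9), against 1.76-fold for all genes. The NP libraries differed by a median of 1.55-fold over 20 members (largest 8.12), against 1.40-fold. Under E2, 4 members could be compared, with a median of 2.57-fold against 2.92, and the other 7 of 11 had no read in the shallower library, where 34.5% of all 2575 such genes had a library at 0. The recovered members together made up 0.331% and 0.607% of the recovered reads in the controls, 0.417% and 0.300% under E2, and 0.577% and 0.562% under NP. By that share the controls bracketed the NP libraries. Normalised for depth, the members summed to 683 and 1254 in the controls, 973 and 347 under E2, and 1459 and 1487 under NP. On that scale both NP libraries lay above both controls, so the reading depends on the measure. Both measures leave out slc25a5, which was not recovered, so they are not totals of the family. slc25a5 had the highest deposited mean of the members, 1489 in the E2 and 4480 in the NP comparison.

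**Figure D4:**
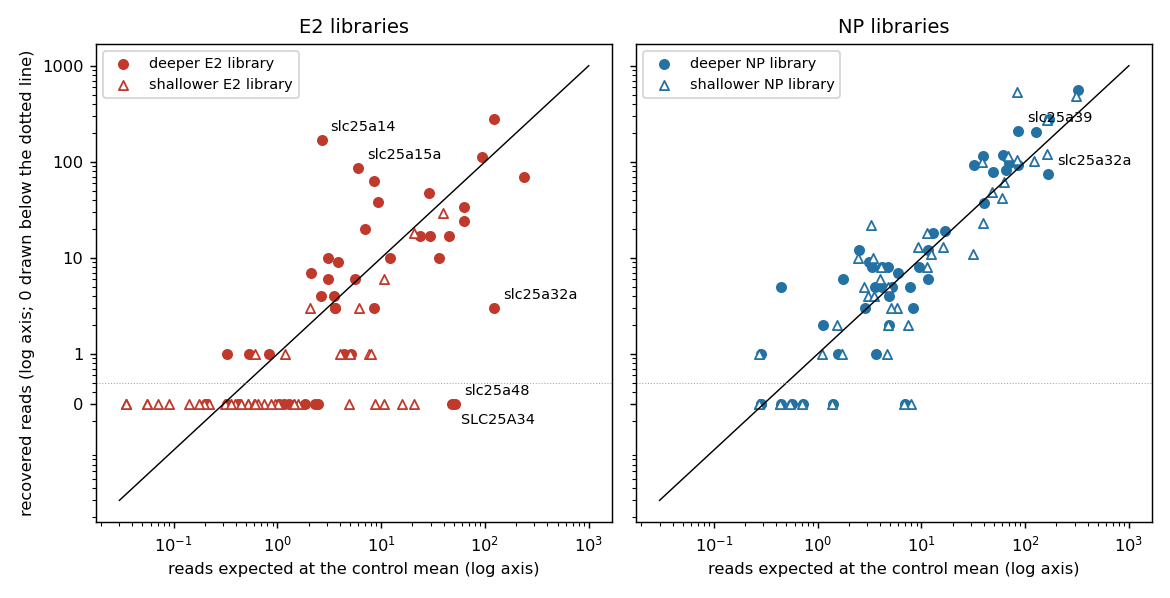
Recovered reads of each slc25 gene in the E2 (left) and NP (right) libraries against the reads expected at the mean level of the controls (both axes log, genes at 0 drawn below the dotted line, the diagonal marking equality). Under E2, slc25a48 and SLC25A34 had 0 reads in the deeper library where 51.6 and 47.6 were expected, and slc25a14 had 168 where 2.66 were.

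Zebrafish keep both copies of many carriers from the genome duplication of bony fish. Of the 9 pairs of members whose names in the files end in a and b, 4 had over 90% of their recovered reads in 1 copy, namely slc25a3b, slc25a23a, slc25a25a and slc25a32a. How reads matching both copies were counted is not given in the sources used here, so the split within a pair is uncertain.

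Genes that work with the carriers were taken as 9 lists. Of relatives that the name rule leaves out, 1 of 3 tested fell after E2, ucp1, and none of 3 was called after NP. ucp1, the zebrafish gene named after the uncoupling protein of mammalian brown fat, had a log2 fold change of -5.71 ± 1.14 (SE) in the authors' deposited table at a mean of 1797, too high for its reads to be recovered. ucp2, another uncoupling-type carrier, had 281 and 5 reads in the controls, 2 and 0 under E2, and 11 and 5 under NP. The authors' deposited table gave ucp2 -4.30 ± 1.58 (SE, log2, adjusted p = 0.080) after E2, and the deeper control alone was high.

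Of 5 tested genes of citrate export and cytosolic NADPH, 1 fell after E2: me1, the cytosolic malic enzyme, with 29 and 321 reads in the controls, 1 and 0 under E2, and 519 and 223 under NP. Both E2 libraries were below both controls, which themselves stood far apart, at -5.60 ± 1.56 (SE, log2, adjusted p = 0.0128) in the authors' deposited table. Of 7 tested genes of haem and iron-sulphur synthesis, 1 rose after NP: alas2, which starts haem synthesis in red cells and was itself on the red blood cell marker list. alas2 had 29 and 13 reads in the controls, 1 and 6 under E2, and 80 and 144 under NP, at 2.79 ± 0.76 (SE, log2, adjusted p = 0.0113) in the authors' deposited table.

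None of 7 genes of citrate export was called after NP, and none of 4 of haem synthesis after E2. None of the other lists had a called gene. After E2 none was called of 6 tested genes of carrier import into mitochondria, 6 of other mitochondrial channels and carriers, 4 of the malate-aspartate shuttle, 5 of the carnitine shuttle, 1 of the urea cycle and 15 of ATP synthase. After NP none was called of 11, 14, 5, 7, 1 and 17 in the same order. The tested gene of the urea cycle list was arg2 in both comparisons, and cps1, ass1, arg1 and nags had no read in any library. ATP synthase, which uses what slc25a5 and slc25a3b bring in, had a median log2 fold change of -0.55 after E2 and 0.34 after NP over its 19 genes in the authors' deposited table. For all genes with reads the medians were -0.52 and -0.08. Most ATP synthase genes had a mean of at least 10. Those 15 had a median of -0.53 after E2, against -0.24 for all such genes. After NP it was 0.33 over 16 genes, against -0.01. atp5g3b, which encodes a part of the membrane ring of ATP synthase, had 295 and 464 reads in the controls, 77 and 48 under E2, and 717 and 450 under NP. vdac2, the outer membrane channel through which carrier substrates pass, had 876 and 667 reads in the controls, 162 and 43 under E2, and 1158 and 1097 under NP, with -0.88 ± 0.99 after E2 and 1.02 ± 0.63 after NP (SE, log2) in the authors' deposited table.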

How the data were processed

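Per the submitters' processing notes, reads were handled with TopHat2, HTSeq and DESeq2 on genome build GRCz10, with versions and settings not given in the sources used here. The deposited files are 2 tables of comparisons made by the authors, each with 32760 rows for 31953 gene IDs, in which repeated rows are identical and count as 1. The deposited signal of a gene is the mean of its normalised read counts in a comparison's 4 libraries. The deposited log2 fold change, its standard error, the score (the ratio of the former to the latter), the p-value and the p-value adjusted for multiple tests are the authors' DESeq2 results and were used as the main result. Adjusted p-values are given for 3241 (E2) and 6799 (NP) genes, from means of 12.6 and 6.64 upward.

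Normalised means are sums of whole reads times a step per library, so reads were recovered by solving both tables together. In simulated means 17162 of 17184 genes were solved, and all 17162 were right. These means were simulated from recovered genes only, so they say nothing on genes like those not recovered. Of 17035 decoy means 11 had a solution, all among the 384 with a mean of at least 100. Recovered genes hold 44.5% and 38.7% of the summed means. 3 reads in a library equal 1.12 to 16.04 normalised reads, and intervals and floors cover counting error only.

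limma-voom (limma 3.58.1, R 4.3.3, TMM scaling, at least 30 reads over the 6 libraries, Benjamini-Hochberg adjustment) was run on the recovered reads as an alternative. In simulated E2 data over 3062 genes it called 22 of 100 genes changed 4-fold and 73 of 100 changed 16-fold. The simulation held only better covered genes and gave all of them the same spread beyond counting error. Its shares therefore need not hold for the 7145 genes of the real data. Python 3.11.15, pandas 2.3.3 and scipy 1.17.1 were used. The members and lists were chosen with earlier results of these data known. The text names members called in either comparison and the 3 with the highest mean in each of 5 transport groups. It also names the 5 highest and 5 lowest log2 fold changes among members with a mean of at least 10. Partner genes that were called are named too. Of lists without a called gene only vdac2, atp5g3b and some genes of the urea cycle list are named. Most genes with the highest means of those lists are not. Names outside that rule were chosen after their values were seen. Not every member counted is reported here by name. Of the 56 members, 55 matched the table of current gene names.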

Additional observations from a re-analysis of the deposited data

How the results depend on the processing

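The E2 count of 2 called slc25 genes was 0 with Benjamini-Hochberg adjustment over all genes with a p. It was also 0 in limma-voom with TMM, with the recovered size factors and without a low-count filter. With TMM and with the recovered size factors, limma-voom called none of the 7145 genes after E2, so those zeros are not particular to slc25 genes. Without a filter it called 55 of 18420 genes after E2. The E2 count was 4 at a threshold of 0.1 and 4 at an unadjusted p under 0.05 (chosen after seeing the data), in both cases with SLC25A34 and slc25a14 added. At that unadjusted p the 4 were among 46 members with reads, where 970 of the 17208 genes with reads passed. How many of all genes passed at the threshold of 0.1, or with adjustment over all genes, is not given here. Whether those 2 changes in the count are particular to slc25 genes therefore cannot be told. The NP count of 0 was 2 at an unadjusted p under 0.05, where 726 of the 18067 genes with reads passed, and 0 under the other settings. Of 2 partner genes called after E2, 1 (ucp1) was left with adjustment over all genes, also chosen after seeing the data. The authors' E2 adjustment covered 3241 genes, whereas 17208 had reads, so the number of tests differed. The causes of the other differences between settings were not tested. The NP median ranged from -0.051 to 0.26 with 1 library left out, and the E2 median from -1.74 to -0.13. Relative to the median of all genes they were 0.27 and -0.05.

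In limma-voom with TMM, signs turned for 5 log2 fold changes past no threshold: slc25a39 (0.13) and slc25a33 (0.11) after E2, and slc25a32a (1.26), slc25a22 (0.11) and slc25a46 (-0.067) after NP. With 1 library left out, signs turned after E2 for slc25a39 (-2.91 to 1.99), slc25a36a (-4.11 to 1.05), slc25a33 (-2.89 to 1.02), slc25a38a (-1.43 to 0.89), slc25a22 (-0.22 to 0.999), slc25a36b (-1.43 to 2.22), slc25a46 (-1.43 to 2.92), slc25a1b (-2.10 to 0.58) and slc25a15a (-0.54 to 4.10). After NP they turned for slc25a36a (-0.68 to 2.67), slc25a32a (-1.80 to 3.99), slc25a42 (-0.18 to 0.73), slc25a48 (-0.021 to 1.69), slc25a20 (-0.43 to 0.997), SLC25A34 (-0.20 to 0.65), slc25a11 (-0.27 to 1.39), slc25a38a (-1.06 to 1.91), slc25a22 (-0.46 to 0.65), slc25a36b (-0.34 to 0.94), slc25a46 (-0.83 to 0.72), slc25a26 (-0.38 to 0.13) and slc25a14 (-1.28 to 0.34). slc25a14 after E2 was fitted in only 3 of these settings (3.09 to 6.09). Without the deeper E2 library, which held its 168 E2 reads, it fell below the read filter. slc25a1b after NP was also fitted in only 3 settings. Where a group was left with 1 library, it was assumed to vary like the others. No paired analysis was possible because the recovered libraries could not be tied to samples. Depth limits the E2 side most, where 3 reads in the shallower library already equal 16.04 normalised reads.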

Other observations

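In the files, 4 further genes carry other names but match current slc25 symbols. si:dkey-185e18.6, now slc25a51b, had a deposited mean of 9.04 in the E2 and 24.2 in the NP comparison and an adjusted p of 0.999 after NP in the authors' deposited table. zgc:92113, now slc25a55b, had means of 1.02 and 2.95 there, and si:dkey-178e17.1 and si:ch1073-100f3.2 had no read.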
